A study of Mus musculus with 12 samples.

Results

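The 4 IFIT genes Ifit1, Ifit2, Ifit3 and Ifit3b, and the 5 genes of the ISG15 conjugation pathway, Isg15, Uba7, Ube2l6, Herc6 and Usp18, were followed across 12 cultures of 4T1 cells. 4T1 is a transplantable triple-negative mammary carcinoma line of BALB/c mice. The members were chosen by gene symbol, from the gene family and the pathway and with no threshold on a measured value. Earlier results of these data were known when the members and the gene lists below were chosen. Each of the 9 symbols was found once among the 40406 entries of the count table. All 9 passed the filter on low counts, as did 15538 genes in all.

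The 12 libraries fell into 4 groups of 3 separate cultures. KO-DTX and KO-DMSO were 4T1 cells labelled as integrin β3 (Itgb3) knockouts, and WT-DTX and WT-DMSO were cells labelled wild type for that gene. KO-DTX and WT-DTX cultures were exposed for 24 h to 10 nM docetaxel, a microtubule-stabilising taxane, and KO-DMSO and WT-DMSO cultures received the solvent DMSO for the same time. All 4 groups then had 48 h in fresh medium without drug before RNA was taken, so each value describes cells after recovery. The sources used here do not say how the knockout cells were made or whether they are 1 clone, and a difference between genotypes cannot be told apart from a difference between clones.

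Library totals lay between 28.7 and 40.8 mega-counts. The Itgb3 transcript was at 62.4, 66.7 and 65 CPM (counts scaled to library size) in KO-DMSO libraries and at 71.4, 60.1 and 66.1 CPM in WT-DMSO libraries, a log2 difference of -0.03 ± 0.08 (SE) with an edgeR adjusted p of 0.874. After docetaxel it was at 59.3, 64.6 and 63.4 CPM in KO-DTX and at 80.6, 88.7 and 80 CPM in WT-DTX (-0.41 ± 0.08, edgeR adjusted p = 0.00765). Transcript level under DMSO did not separate the genotypes, and the cells are called knockout-labelled here. Library 1 of WT-DMSO has the title and genotype label of a wild-type culture, but its free-text description names the knockout. Over the 3 WT-DMSO libraries, this one among them, Cldn7 averaged 8.95 ± 0.491 CPM and Itgb2 5.62 ± 0.734 CPM (SD). In KO-DMSO they averaged 0.0741 ± 0.0499 CPM and 47.6 ± 2.63 CPM. The identity of the library was not tested beyond these values. The gene Gm23935 took 3.98% of the counts of WT-DMSO library 2, 1.62% of WT-DMSO library 1 and 1.51% of KO-DTX library 3, and 0.137% to 0.856% of the other libraries. Summed epithelial markers, keratins among them, lay between 2613 and 3921 CPM in all libraries, although Cldn7 averaged 0.139 CPM in KO-DTX and 0.0741 CPM in KO-DMSO against 7.81 CPM in WT-DTX and 8.95 CPM in WT-DMSO. The 12 leukocyte markers summed to 4.91 to 6.27 CPM in KO-DTX, 3.96 to 8.31 CPM in KO-DMSO, 4.6 to 6.35 CPM in WT-DTX and 3.13 to 4.49 CPM in WT-DMSO, and Siglech and Ncr1 were at 0 in every group. Cd3e (group means of 1.54 to 2.82 CPM) and Csf1r (1.87 to 2.76 CPM) were the highest of the 12. S100a8 was called higher with docetaxel in both genotypes. It averaged 0.656 CPM in KO-DTX and 0.0528 CPM in KO-DMSO (edgeR adjusted p = 0.000929), and 0.811 CPM in WT-DTX and 0 CPM in WT-DMSO (edgeR adjusted p = 8.97e-05). The 8 fibroblast and endothelial markers summed to 11.3 to 14.6 CPM in KO-DTX, 13.9 to 16.8 CPM in KO-DMSO, 19.5 to 20.4 CPM in WT-DTX and 27.3 to 30 CPM in WT-DMSO, with Lum at 0 throughout. Pdgfra made up most of these last sums, averaging 12.3 CPM in KO-DTX, 15 in KO-DMSO, 19.3 in WT-DTX and 28.4 in WT-DMSO. Each other marker of that list averaged 0.302 CPM or less in every group. The sums were lower in knockout-labelled cells, and lower after docetaxel in wild-type cells. In knockout-labelled cells the 2 treatments overlapped. The part of these sums in the results was not tested.

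The genes studied are classical targets of interferon signalling. Type I interferons bind the receptor pair Ifnar1 and Ifnar2, the kinases Jak1 and Tyk2 are activated, and the transcription factor complex ISGF3, which holds Stat2 and Irf9, binds interferon-stimulated response elements in the promoters of such genes. IFIT proteins bind RNA and interfere with the translation of foreign transcripts. Isg15 is a ubiquitin-like protein that is joined to other proteins by an activating enzyme (Uba7), a conjugating enzyme (Ube2l6) and a ligase (Herc6 in mice), and that is taken off again by the protease Usp18.

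The 4 IFIT genes lie on the plus strand of chromosome 19 in the order Ifit2 (chr19:34550694-34576419), Ifit3 (chr19:34583531-34588731), Ifit3b (chr19:34607970-34613401) and Ifit1 (chr19:34640871-34650009), in GRCm38 coordinates of GENCODE release M21. With Ifit1bl1 and Ifit1bl2, which lie between them on the minus strand, they form a row of 6 genes over 99.3 kb. The ISG15 pathway genes are spread over the genome. Isg15 lies at chr4:156199424-156200818 on the minus strand, Uba7 at chr9:107975505-107984060, Ube2l6 at chr2:84798828-84810335, Herc6 at chr6:57581000-57664632 and Usp18 at chr6:121245906-121270917, the last 4 on the plus strand. All 9 are annotated as protein-coding.

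The promoters are shown because the members moved together and the response element is known. RefSeq promoter windows of 300 bases (GRCm38.p6) were matched for 8 of the 9 members, and 4 of the 8 held the core of the response element, which is GAAA, any 2 bases and GAAA again, on either strand. In the windows below the capitals mark every match, which reads TTTC, 2 bases and TTTC where the element lies on the other strand. The windows are Ifit1 at chr19:34640639-34640938 on the plus strand, Ifit3 at chr19:34583279-34583578 on the plus strand, Ifit3b at chr19:34607707-34608006 on the plus strand and Isg15 at chr4:156200769-156201068 on the minus strand, each written 5′ to 3′ along its gene.
Ifit1: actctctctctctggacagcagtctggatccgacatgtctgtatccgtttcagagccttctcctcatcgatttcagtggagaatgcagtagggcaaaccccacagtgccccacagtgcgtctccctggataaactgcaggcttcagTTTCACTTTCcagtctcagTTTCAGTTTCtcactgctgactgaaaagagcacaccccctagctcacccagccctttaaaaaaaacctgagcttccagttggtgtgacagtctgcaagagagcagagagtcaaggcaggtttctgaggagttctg
Ifit3: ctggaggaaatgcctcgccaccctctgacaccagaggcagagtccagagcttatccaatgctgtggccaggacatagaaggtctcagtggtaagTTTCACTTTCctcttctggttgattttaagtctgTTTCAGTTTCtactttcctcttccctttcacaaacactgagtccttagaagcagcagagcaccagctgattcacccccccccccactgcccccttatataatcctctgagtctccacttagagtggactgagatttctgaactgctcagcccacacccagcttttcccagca
Ifit3b: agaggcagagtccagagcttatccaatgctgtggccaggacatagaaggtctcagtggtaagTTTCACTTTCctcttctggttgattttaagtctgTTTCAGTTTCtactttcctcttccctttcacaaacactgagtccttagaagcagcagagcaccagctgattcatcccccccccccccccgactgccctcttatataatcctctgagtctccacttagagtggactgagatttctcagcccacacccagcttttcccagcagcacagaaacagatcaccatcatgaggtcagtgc
Isg15: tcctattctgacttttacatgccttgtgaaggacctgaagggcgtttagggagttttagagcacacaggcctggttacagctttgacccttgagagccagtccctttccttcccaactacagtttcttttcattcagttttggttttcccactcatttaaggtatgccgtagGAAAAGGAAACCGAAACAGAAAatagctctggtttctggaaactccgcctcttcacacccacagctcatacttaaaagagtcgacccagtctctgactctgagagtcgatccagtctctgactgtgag

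Each of the Ifit1, Ifit3 and Ifit3b windows held 2 matches, and the Isg15 window held 3 that overlap one another in 1 run. Relative to the annotated start site, those of Ifit1 lay at -104 to -95 and -85 to -76, and the Isg15 run at -78 to -57. The matches of Ifit3 lay at -156 to -147 and -122 to -113, and those of Ifit3b at -188 to -179 and -154 to -145. The Ifit3 and Ifit3b windows were identical at 259 of 260 aligned bases. Of all 32851 windows in the RefSeq table, 3.44% held the core, and by gene 3.99% of 27025 did. Of the other interferon-induced genes listed below, 12 of 18 with a window held it, against 0 of 17 relatives of the ubiquitin family. The letters TTCNNNGAA, the gamma-activated sequence, were found on either strand in 1 of the 8 members, the first of 2 windows of Ifit2, at -241 to -233, and in 8.3% of all windows and 9.55% of all genes. A match describes the letters in the window and is not a measured binding site.

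**Figure D1:**
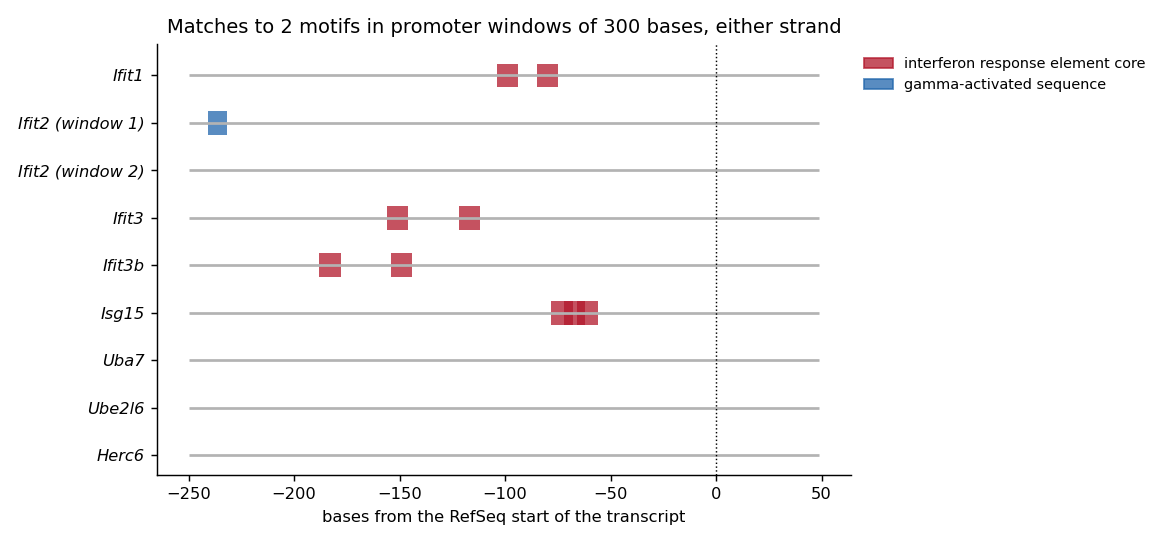
Position of each match to the 2 motifs in bases from the annotated start site (x axis) for each RefSeq promoter window of the members (rows). Matches to the interferon response core lie between -188 and -57 in Ifit1, Ifit3, Ifit3b and Isg15, and the gamma-activated sequence is marked in Ifit2 alone.

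After docetaxel and recovery, all 9 members rose in knockout-labelled cells, with fitted folds of 2.04 (Uba7) to 4.09 (Ube2l6), and all 9 rose in wild-type cells, with folds of 1.57 (Herc6) to 2.67 (Isg15). The summed level of the 9 genes averaged 559 ± 70.2 CPM in KO-DTX and 165 ± 30.3 CPM in KO-DMSO, and 735 ± 135 CPM in WT-DTX and 343 ± 46.7 CPM in WT-DMSO (SD, n = 3 each). The test was edgeR's quasi-likelihood test, two-sided, with Benjamini-Hochberg adjustment over all 15538 tested genes and calls at 0.05. Across all tested genes, 16.1% were called in knockout-labelled cells (9.09% higher, 7% lower) and 28.4% in wild-type cells (14.5% higher, 13.8% lower). The median log2 fold change of the members was 1.73 in knockout-labelled and 0.98 in wild-type cells, beside 0.00 and 0.02 over all tested genes. In no member did the 3 docetaxel libraries overlap the 3 DMSO libraries of the same genotype, where 19.2% of all tested genes stood higher without overlap in knockout-labelled cells and 21.2% in wild-type cells. In RNA from whole cultures, more cells expressing a gene and more RNA per cell cannot be told apart.

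**Figure D2:**
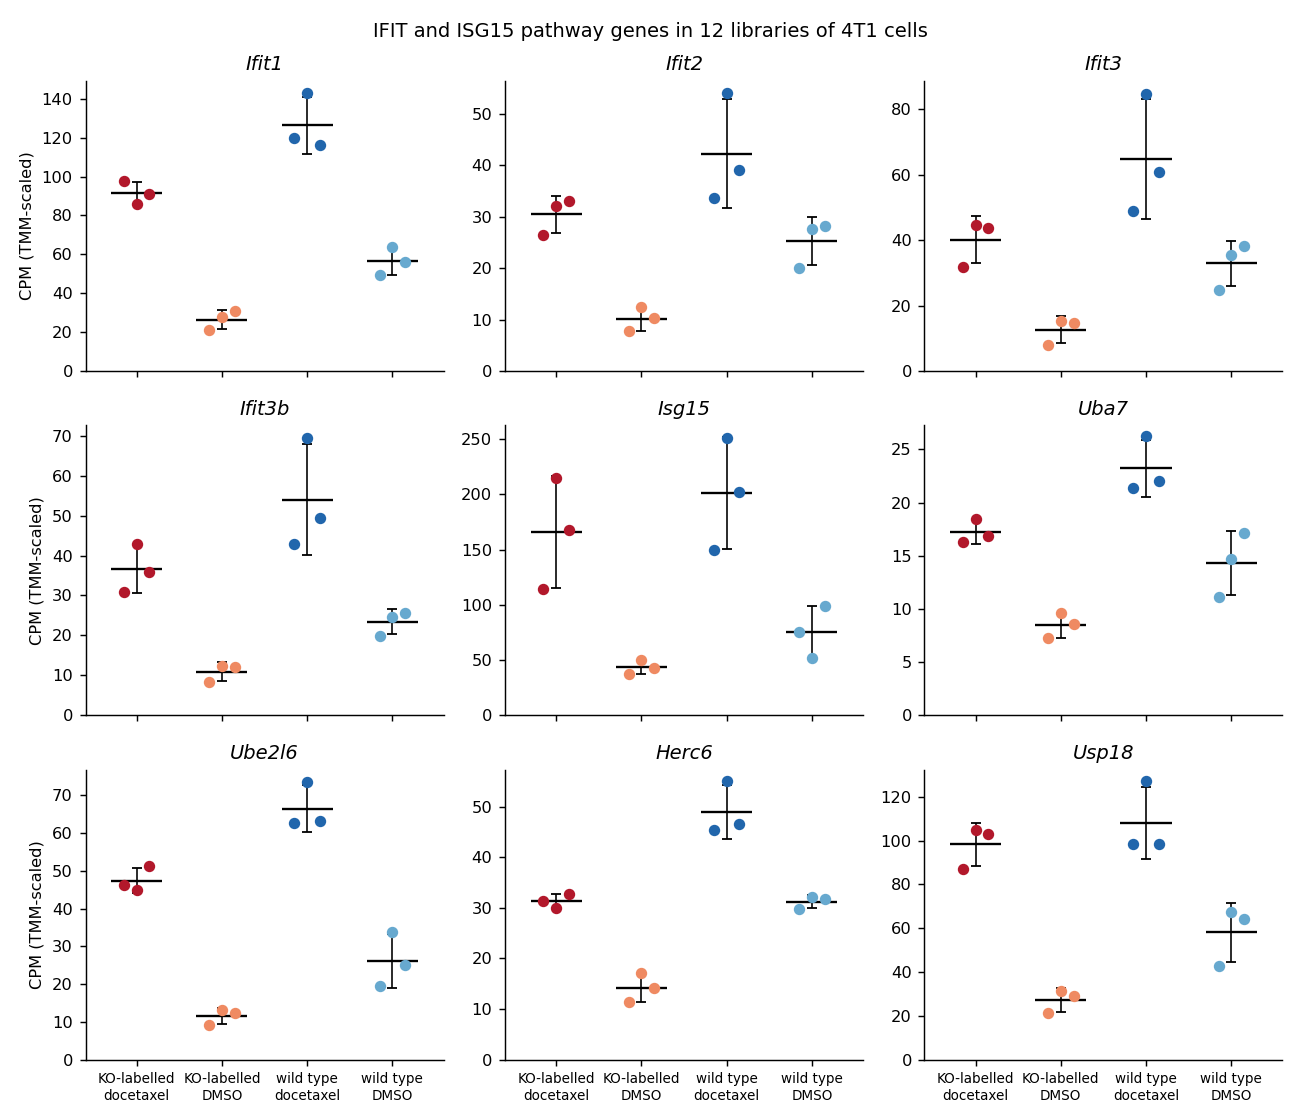
Level of each member in every library (points; y axis, TMM-scaled CPM on a linear scale from 0) by group (x axis), with a bar at the group mean and whiskers of 1 SD (n = 3). In every member the KO-DTX libraries lie above KO-DMSO and the WT-DTX libraries above WT-DMSO, and KO-DMSO is the lowest group.

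Of the IFIT genes, Ifit1 encodes an RNA-binding protein that recognises the unmodified 5′ ends of foreign RNA. It was at 97.5, 86.1 and 91.2 CPM in KO-DTX libraries against 20.9, 27.6 and 30.6 CPM in KO-DMSO libraries, and at 120, 143 and 116 CPM in WT-DTX libraries against 49.5, 63.8 and 55.9 CPM in WT-DMSO libraries. The 4 groups did not overlap, with KO-DMSO lowest and WT-DTX highest. Its log2 change with docetaxel was 1.80 ± 0.14 in knockout-labelled cells (edgeR adjusted p = 1.46e-06) and 1.16 ± 0.13 in wild-type cells (edgeR adjusted p = 6.29e-05).

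Ifit2, whose product also binds RNA and in human cells promotes cell death, was the lowest of the 4 IFIT genes per kilobase of annotated exon. Levels were 26.4, 32.1 and 33 CPM in KO-DTX against 7.77, 12.4 and 10.4 CPM in KO-DMSO, and 33.6, 54.1 and 39.2 CPM in WT-DTX against 20, 27.7 and 28.2 CPM in WT-DMSO. The KO-DTX libraries overlapped those of WT-DMSO, and library 2 of WT-DTX stood apart from the other two. Ifit2 rose by 1.58 ± 0.20 on the log2 scale in knockout-labelled cells (edgeR adjusted p = 0.000116) and by 0.74 ± 0.19 in wild-type cells (edgeR adjusted p = 0.0107). Without WT-DTX library 2 the wild-type change was 0.52 and was no longer called (edgeR adjusted p = 0.0582).

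Ifit3 and Ifit3b are near copies, and their longest transcripts were identical at 1663 of 1697 aligned bases (98%). Of the stretches of 150 bases along their exons, 18.5% of those in Ifit3 also occurred in Ifit3b and 16% of those in Ifit3b also in Ifit3, so the counting may have split such reads or dropped them, and both values are uncertain. In human cells IFIT3 binds and stabilises IFIT1. Ifit3 was at 31.8, 44.6 and 43.8 CPM in KO-DTX against 7.9, 15.4 and 14.6 CPM in KO-DMSO, and at 49, 84.8 and 60.7 CPM in WT-DTX against 24.9, 35.6 and 38.1 CPM in WT-DMSO. Ifit3b was at 30.8, 42.9 and 36 CPM in KO-DTX against 8.28, 12.4 and 12.2 CPM in KO-DMSO, and at 42.9, 69.5 and 49.3 CPM in WT-DTX against 19.8, 24.7 and 25.7 CPM in WT-DMSO. For both genes WT-DTX library 2 was the highest of all 12 and KO-DMSO library 1 the lowest.

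The log2 change of Ifit3 with docetaxel was 1.66 ± 0.25 in knockout-labelled cells (edgeR adjusted p = 0.000577) and 0.98 ± 0.24 in wild-type cells (edgeR adjusted p = 0.00874). For Ifit3b it was 1.73 ± 0.20 in knockout-labelled cells (edgeR adjusted p = 5.16e-05) and 1.20 ± 0.19 in wild-type cells (edgeR adjusted p = 0.000558). Ifit1bl2, the neighbour on the other strand, was far lower, with means of 5.92 CPM in KO-DTX and 1.86 CPM in KO-DMSO, and 7.99 CPM in WT-DTX and 2.92 CPM in WT-DMSO. It rose by 1.66 ± 0.21 on the log2 scale in knockout-labelled cells (edgeR adjusted p = 9.62e-05) and by 1.45 ± 0.20 in wild-type cells (edgeR adjusted p = 0.000195). Ifit1bl1 stayed near 1 CPM or below, with means of 1.22 CPM in KO-DTX and 0.317 CPM in KO-DMSO, and 1.05 CPM in WT-DTX and 0.583 CPM in WT-DMSO. Its docetaxel change passed the test in knockout-labelled cells (log2 1.93 ± 0.61, edgeR adjusted p = 0.0433) and did not in wild-type cells (0.84 ± 0.58, edgeR adjusted p = 0.304).

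Isg15 is the modifier itself and can also be secreted as a free protein. Levels were 114, 215 and 168 CPM in KO-DTX against 37.2, 49.9 and 43 CPM in KO-DMSO. In wild-type cells they were 150, 251 and 202 CPM in WT-DTX against 75.3, 51.8 and 98.6 CPM in WT-DMSO. The spread within groups was wide, and library 2 was the highest of both docetaxel groups but the lowest of WT-DMSO, where it is also the library richest in Gm23935. Isg15 rose by 1.93 ± 0.26 on the log2 scale in knockout-labelled cells (edgeR adjusted p = 0.000171) and by 1.42 ± 0.25 in wild-type cells (edgeR adjusted p = 0.00115).

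The 3 enzymes of conjugation rose in both genotypes. The E1 enzyme Uba7, which activates Isg15, was at 16.3, 18.5 and 16.9 CPM in KO-DTX against 7.23, 9.58 and 8.55 CPM in KO-DMSO, and at 21.4, 26.3 and 22 CPM in WT-DTX against 11.1, 14.7 and 17.1 CPM in WT-DMSO. Its changes were among the smallest of the members, 1.03 ± 0.15 on the log2 scale in knockout-labelled cells (edgeR adjusted p = 0.000517) and 0.70 ± 0.15 in wild-type cells (edgeR adjusted p = 0.00374). The E2 enzyme Ube2l6, which carries activated Isg15, was at 46.2, 44.8 and 51.2 CPM in KO-DTX against 9.21, 13.2 and 12.4 CPM in KO-DMSO, and at 62.5, 73.5 and 63.1 CPM in WT-DTX against 19.5, 33.8 and 25.1 CPM in WT-DMSO. All 4 groups of Ube2l6 were apart from one another. Ube2l6 rose by 2.03 ± 0.18 in knockout-labelled cells (edgeR adjusted p = 3.79e-06) and by 1.34 ± 0.17 in wild-type cells (edgeR adjusted p = 0.000109), on the log2 scale.

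Herc6, the ligase that passes Isg15 to its substrates in mice, was at 31.3, 29.9 and 32.8 CPM in KO-DTX against 11.4, 17.2 and 14.1 CPM in KO-DMSO. In wild-type cells it was at 45.3, 55.1 and 46.5 CPM in WT-DTX against 29.8, 32.1 and 31.8 CPM in WT-DMSO. Levels of KO-DTX and WT-DMSO overlapped. Its log2 change with docetaxel was 1.14 ± 0.13 in knockout-labelled cells (edgeR adjusted p = 4.74e-05) and 0.65 ± 0.13 in wild-type cells (edgeR adjusted p = 0.00205). The annotated transcript Gm45193 covers 13.7% of the Herc6 exon bases on the same strand, and how reads there were assigned is not known.

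Usp18 removes Isg15 from proteins and also binds the receptor chain Ifnar2, where it dampens interferon signalling. Levels were 86.9, 105 and 103 CPM in KO-DTX against 21.2, 31.5 and 29.1 CPM in KO-DMSO, and 98.5, 127 and 98.4 CPM in WT-DTX against 42.6, 67.6 and 64.1 CPM in WT-DMSO. The docetaxel libraries of the 2 genotypes overlapped, and the DMSO libraries did not. Usp18 rose by 1.85 ± 0.18 on the log2 scale in knockout-labelled cells (edgeR adjusted p = 1.15e-05) and by 0.89 ± 0.17 in wild-type cells (edgeR adjusted p = 0.00219).

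The ratio of Ube2l6 to Uba7 CPM within each library was compared, one of 5 ratios chosen after the values were seen. It was 2.83, 2.42 and 3.04 in KO-DTX against 1.27, 1.37 and 1.45 in KO-DMSO, and 2.92, 2.80 and 2.86 in WT-DTX against 1.76, 2.31 and 1.47 in WT-DMSO. The groups did not overlap in either genotype. The difference in the log2 ratio was 1.01 in knockout-labelled and 0.65 in wild-type cells, each with an exact permutation p of 0.1, the smallest that 3 against 3 libraries allow, and an adjusted p of 0.222 over the 20 ratio comparisons made. The ratio of Ube2l6 to Herc6 differed likewise, by 0.89 in knockout-labelled and 0.73 in wild-type cells (exact permutation p = 0.1 each, adjusted p = 0.222). The ratio of Isg15 to its protease transcript Usp18 overlapped between docetaxel and DMSO, with log2 differences of 0.03 in knockout-labelled cells (exact permutation p = 0.9) and 0.52 in wild-type cells (exact permutation p = 0.3), adjusted p of 1 and 0.5.

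Under DMSO all 9 members were lower in knockout-labelled than in wild-type cells, with fitted folds of 0.38 (Ifit3) to 0.59 (Uba7), and the per-library values above did not overlap in any of them. Of all tested genes, 15.8% were called in this comparison (6.6% higher, 9.2% lower), and 16.9% stood lower without overlap. The median log2 difference of the members was -1.10, beside 0.01 over all tested genes. Ifit3 and Ifit2 had the largest differences, -1.38 ± 0.25 (edgeR adjusted p = 0.00236) and -1.31 ± 0.20 (edgeR adjusted p = 0.000591). Herc6 had the smallest adjusted p (-1.14 ± 0.13, edgeR adjusted p = 5.08e-05).

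Ifit1 and Usp18 were lower by similar amounts under DMSO, -1.10 ± 0.14 (edgeR adjusted p = 0.000114) and -1.09 ± 0.18 (edgeR adjusted p = 0.000978). So were Ube2l6 (-1.17 ± 0.18, edgeR adjusted p = 0.000515) and Ifit3b (-1.09 ± 0.20, edgeR adjusted p = 0.00213). The E1 enzyme Uba7 had the smallest log2 difference, -0.76 ± 0.16 (edgeR adjusted p = 0.00495). Isg15 stood closest to the threshold at -0.80 ± 0.25 (edgeR adjusted p = 0.0449). The Isg15 call was lost when any 1 of 7 libraries was left out, namely KO-DMSO 1 (edgeR adjusted p = 0.169), 2 (0.0611) or 3 (0.112), KO-DTX 3 (0.063), WT-DMSO 1 (0.0705) or 3 (0.163), or WT-DTX 3 (0.0634), with log2 differences between -1.01 and -0.56 over all alternatives. The docetaxel comparison in knockout-labelled cells and this comparison share the KO-DMSO libraries, the lowest group for every member.

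After docetaxel all 9 estimates of knockout-labelled against wild type were again negative, between -0.69 and -0.13 with a median of -0.47, but 1 member passed the test, where 5.89% of all tested genes did (2.5% higher, 3.39% lower). That member was the ligase Herc6, with -0.65 ± 0.12 (edgeR adjusted p = 0.00643). Ifit1 (-0.46 ± 0.13) had an edgeR adjusted p of 0.0554, and Ifit3, with the largest estimate (-0.69 ± 0.24), one of 0.122. Usp18 and Isg15 had the smallest differences, -0.13 ± 0.17 (edgeR adjusted p = 0.765) and -0.28 ± 0.24 (edgeR adjusted p = 0.626), and were the 2 members whose KO-DTX and WT-DTX libraries overlapped. The other 7 were lower without overlap, as were 13.2% of all tested genes. The count called moved between 1 and 7 with the processing. It was 7 with no filter on low counts, where 1185 of all genes were called, against 915 in the main fit.

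**Figure D3:**
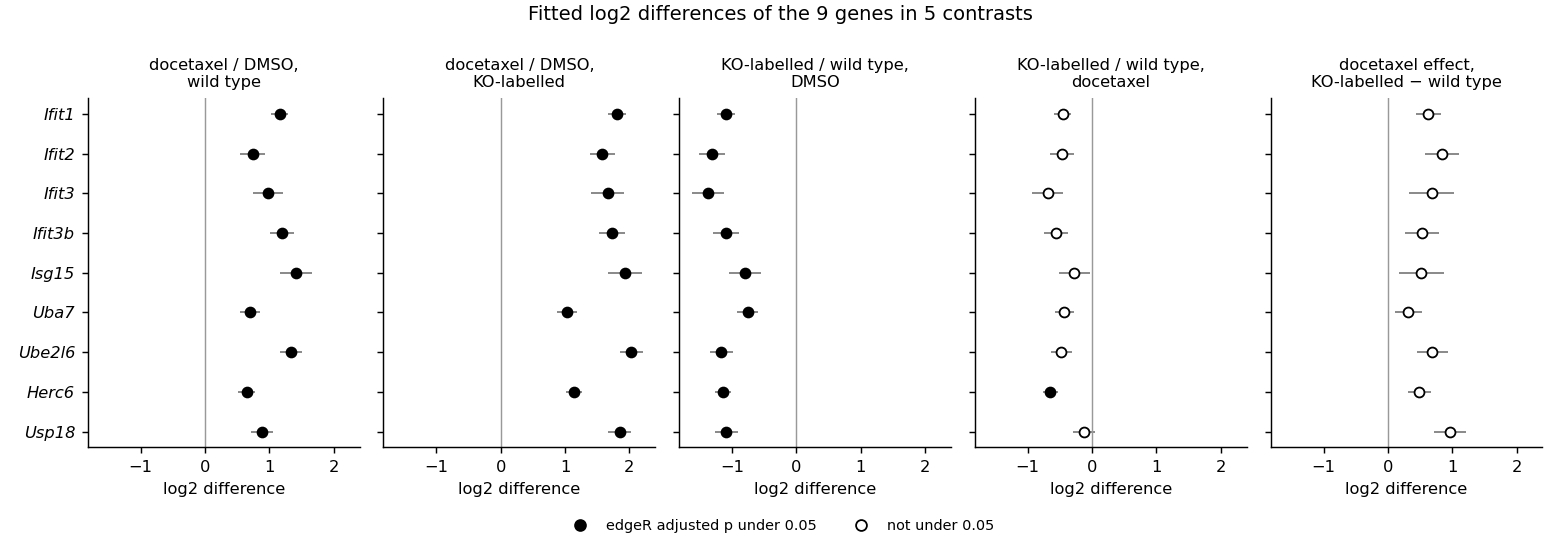
Fitted log2 difference of each member with its SE (x axis) for each member (rows) in 5 panels, the 4 comparisons and the difference of the docetaxel effects, filled where the edgeR adjusted p is under 0.05. All 9 members are filled in both docetaxel panels and under DMSO, Herc6 alone is filled after docetaxel, and all 9 are open in the last panel.

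The docetaxel effect was larger in knockout-labelled than in wild-type cells for all 9 members in the estimates, by 0.32 (Uba7) to 0.96 (Usp18) on the log2 scale with a median of 0.63, beside -0.00 over all tested genes. In edgeR 0 members passed the test of this difference at an adjusted p of 0.05, and 0.109% of all tested genes did (0.0901% higher, 0.0193% lower). Usp18 came closest (0.96 ± 0.25, edgeR adjusted p = 0.194), followed by Ifit1 (0.63 ± 0.19, edgeR adjusted p = 0.285). Before adjustment, 5 of the 9 had an edgeR p under 0.05 with a larger effect in knockout-labelled cells, as had 6.11% of all tested genes. They were Usp18, Ifit1, Ifit2 (0.84 ± 0.27), Ube2l6 (0.69 ± 0.24) and Herc6 (0.49 ± 0.18). In the same comparison 1 member was called by DESeq2 and 6 with no filter on low counts, where 165 and 421 of all genes were called. With docetaxel, knockout-labelled cells stood beside untreated wild-type cells as follows, with no test made: KO-DTX libraries were above all WT-DMSO libraries for Ifit1, Ifit3b, Isg15, Ube2l6 and Usp18, and overlapped them for Ifit2, Ifit3, Uba7 and Herc6.

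Divided by exon length, Isg15 was the most abundant member in every group, at 219 ± 66.5 CPM per kilobase in KO-DTX and 57.3 ± 8.4 in KO-DMSO, and at 266 ± 66.9 in WT-DTX and 99.5 ± 31 in WT-DMSO. Its libraries lay above those of the next gene throughout. In KO-DTX, Usp18 (35.2 ± 3.57 CPM per kilobase) and Ifit1 (34.5 ± 2.14) followed and overlapped each other. Ube2l6 (23.8 ± 1.69), Ifit3 (23 ± 4.11) and Ifit3b (18.3 ± 3.02) came next, and each overlapped its neighbour. Ifit2 (7.77 ± 0.903) and Herc6 (3.37 ± 0.158) stood apart below them, and the E1 Uba7 was lowest at 2.57 ± 0.17. In the other 3 groups the middle 5 genes overlapped from one to the next, and Ifit2, Herc6 and Uba7 kept the last places. Herc6 and Uba7 overlapped in KO-DMSO, at 1.53 ± 0.315 and 1.26 ± 0.176 CPM per kilobase. The divisor was all annotated exon bases of a gene, 2790 for Usp18, 1996 for Ube2l6, 6692 for Uba7 and 9292 for Herc6. In these genes it exceeded the length of the longest transcript, so their places and overlaps depend on that choice. The order by transcript length was not examined.

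The members also varied together among cultures of 1 group. KO-DMSO library 1 was the lowest of its group for 9 of 9 members, with a summed level of 131 CPM beside 189 and 175 CPM in libraries 2 and 3. WT-DTX library 2 was the highest of its group for 9 of 9, with 884 CPM beside 623 and 697 CPM. WT-DMSO library 1, the one whose description names the knockout, was the lowest of its group for 8 of 9 members, with 292 CPM beside 352 and 385 CPM. Across the 36 pairs of members, the correlation of log2 CPM over the 12 libraries had a median r of 0.962 and a lowest r of 0.842, which the 4 groups largely set. After each group's mean was taken off, the median r was 0.735, from -0.056 (Isg15 with Ube2l6) to 0.968. These values describe genes measured in the same libraries, and carry no test. The same ranks and pairwise correlations were not taken over all tested genes, so they are not shown to be particular to the members. Without WT-DMSO library 1, the members called were 9 with docetaxel in knockout-labelled cells, 9 in wild-type cells, 8 between genotypes under DMSO, 3 after docetaxel and 2 in the difference of effects. Of all tested genes, 2851, 4771, 3273, 1064 and 431 were called in these 5 comparisons without that library, against 2499, 4406, 2454, 915 and 17 with it.

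**Figure D4:**
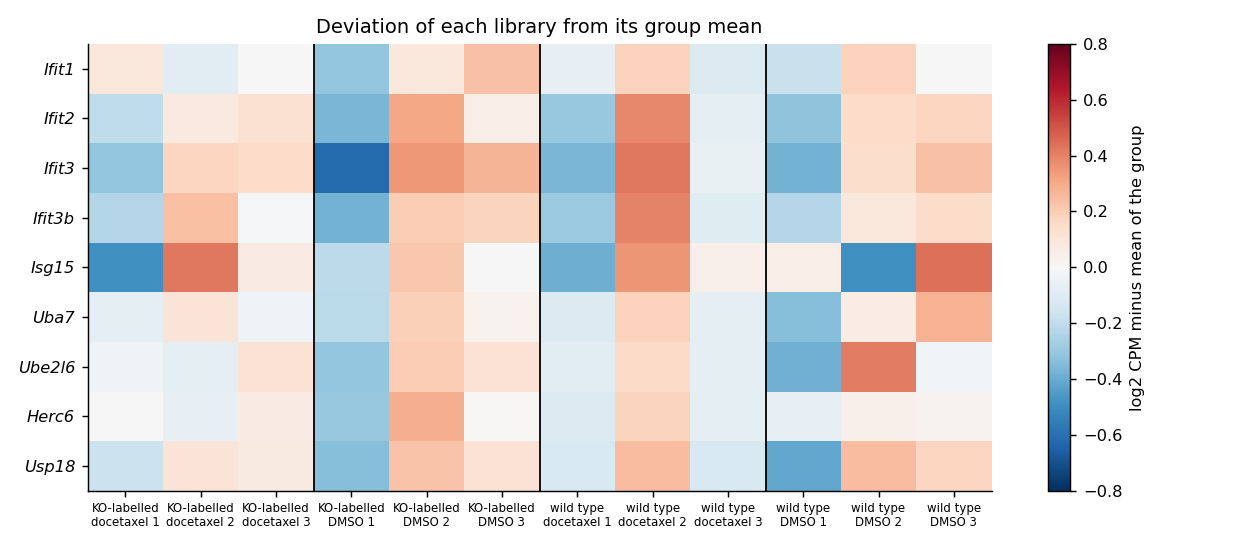
Heat map of the log2 CPM of each member (rows) in each of the 12 libraries (columns) minus the mean of its group, red above and blue below that mean. All 9 members lie below 0 in KO-DMSO library 1 and above 0 in WT-DTX library 2, and Isg15 departs from the others in WT-DMSO library 2.

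Over the 12 libraries, the genes most like the members' mean log2 profile, among 10175 genes with a mean of at least 5 CPM, were Parp12 (r = 0.996), Gbp3 (0.994), Igtp (0.994), Gbp9 (0.993), Zbp1 (0.993), Rsad2 (0.992), Irf7 (0.992) and Mx2 (0.990). Within groups their deviations correlated with those of the members at r of 0.901 (Mx2) to 0.979 (Gbp3). Parp12 averaged 118 CPM in KO-DTX and 49.6 CPM in KO-DMSO, and 147 CPM in WT-DTX and 89.4 CPM in WT-DMSO. Gbp3, which encodes a guanylate-binding protein, averaged 78.8 CPM in KO-DTX and 14.3 CPM in KO-DMSO, and 121 CPM in WT-DTX and 42.3 CPM in WT-DMSO.

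A list of 25 other interferon-induced genes, also chosen with earlier results of these data known, gave similar counts. Of all tested genes, 9.09% rose with docetaxel in knockout-labelled cells and 14.5% in wild-type cells. In knockout-labelled cells 9.2% were lower under DMSO and 3.39% after docetaxel. With docetaxel, 25 of 25 rose in knockout-labelled cells (median log2 change 1.83) and 23 of 25 in wild-type cells (0.94). Under DMSO 25 of 25 were lower in knockout-labelled cells (median -1.18), and after docetaxel 2 of 25 were, Mx1 (-0.79, edgeR adjusted p = 0.0475) and Gbp3 (-0.62, edgeR adjusted p = 0.0174). In the test of the difference between docetaxel effects, 1 gene of the list was called, as were 0.109% of all tested genes. It was Oas2, a sensor enzyme for double-stranded RNA (log2 1.78 ± 0.31, edgeR adjusted p = 0.0484). The call was also made by 9 of 20 alternatives (adjusted p between 2.95e-22 and 0.242 in edgeR or DESeq2). Oas2 means were 62.5 CPM in KO-DTX and 6.16 CPM in KO-DMSO, and 69 CPM in WT-DTX and 23.3 CPM in WT-DMSO. Over the list these differences ran from 0.26 to 1.78 with a median of 0.94. Ifi44 (1.53, edgeR adjusted p = 0.0528) and Oas1a (1.25, edgeR adjusted p = 0.0587) came next to Oas2.

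The wider ubiquitin family gave mixed counts. Of 24 relatives, such as ubiquitin, Nedd8 and Sumo genes and their own E1, E2 and HERC enzymes, 1 rose with docetaxel in knockout-labelled cells (9.09% of all tested genes did), with a median log2 change of 0.15. In wild-type cells 7 rose (14.5% of all tested genes did), also with a median of 0.15, the largest being Herc2 (0.56 ± 0.11, edgeR adjusted p = 0.00209) and Sae1, an E1 subunit for SUMO (0.48 ± 0.10, edgeR adjusted p = 0.00294). Under DMSO 4 were higher and 2 lower in knockout-labelled cells, where 6.6% and 9.2% of all tested genes were. Herc3 averaged 9.35 CPM in KO-DMSO against 4.32 CPM in WT-DMSO (1.11 ± 0.14, edgeR adjusted p = 0.000164), opposite in sign to Herc6. After docetaxel Herc3 was the 1 relative called between genotypes, where 5.89% of all tested genes were. It was at 9.96 CPM in KO-DTX against 4.28 CPM in WT-DTX (1.22 ± 0.14, edgeR adjusted p = 0.000101).

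**Figure D5:**
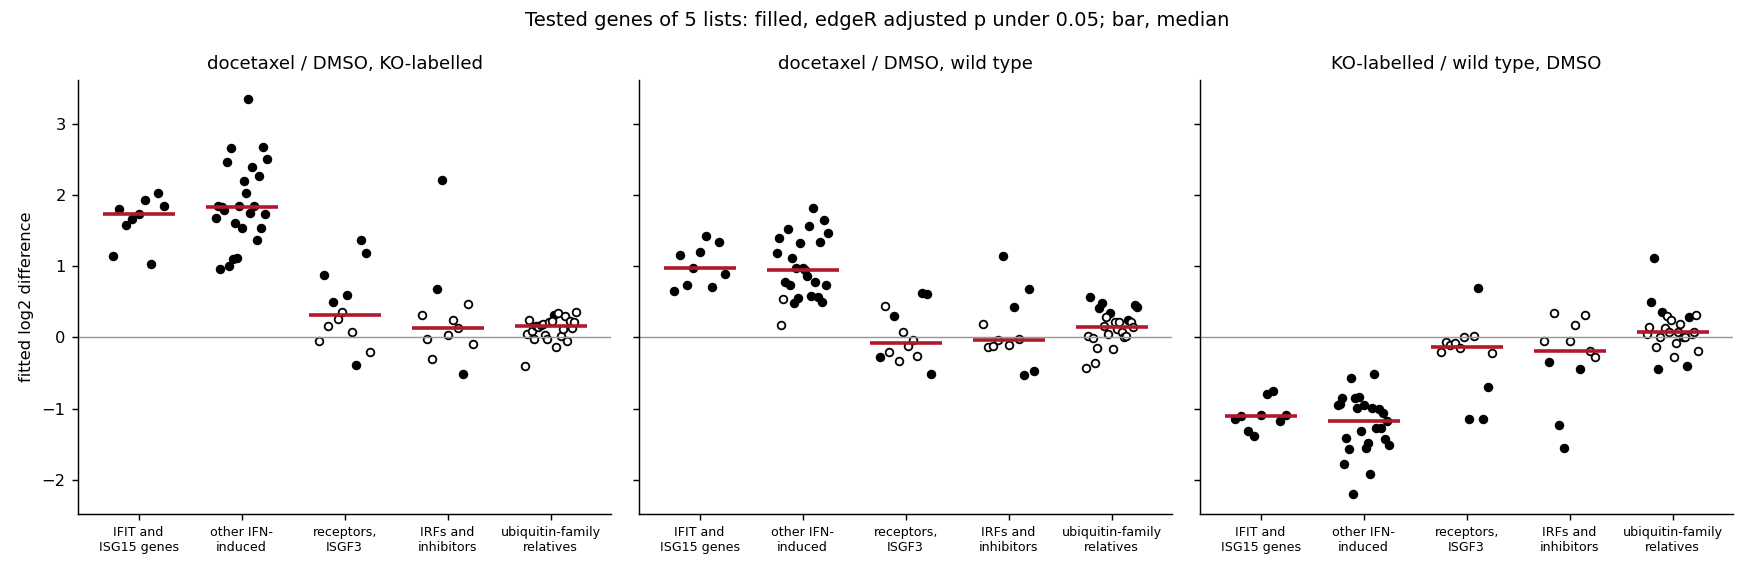
Fitted log2 difference of every tested gene (points, y axis) of 5 gene lists (x axis) in 3 comparisons, filled where the edgeR adjusted p is under 0.05, with the median as a bar. The members (medians 1.73, 0.98 and -1.10) lie with the other interferon-induced genes (1.83, 0.94 and -1.18), and the ubiquitin relatives lie near 0 (0.15, 0.15 and 0.08).

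Among 12 genes for interferon receptors, their kinases and ISGF3, 5 rose and 1 fell with docetaxel in knockout-labelled cells. Of all tested genes, 9.09% rose and 7% fell there. In wild-type cells 3 rose and 2 fell, beside 14.5% and 13.8% of all tested genes. Stat2 averaged 125 ± 17.8 CPM in KO-DTX and 55.1 ± 8.07 CPM in KO-DMSO, and 137 ± 19.7 CPM in WT-DTX and 89.7 ± 11.4 CPM in WT-DMSO. It rose by 1.18 ± 0.14 on the log2 scale in knockout-labelled cells (edgeR adjusted p = 7.48e-05) and by 0.61 ± 0.14 in wild-type cells (edgeR adjusted p = 0.00567). Irf9, the DNA-binding subunit of ISGF3, rose in knockout-labelled cells (0.60 ± 0.13, edgeR adjusted p = 0.00655) and had an estimate of -0.12 ± 0.13 in wild-type cells (edgeR adjusted p = 0.538), while the test of the difference between these effects gave 0.72 ± 0.18 (edgeR adjusted p = 0.184). The receptor chain Ifnar2 rose in knockout-labelled cells (0.87 ± 0.19, edgeR adjusted p = 0.00629), and Ifngr2 rose in knockout-labelled (0.49 ± 0.09, edgeR adjusted p = 0.0015) and wild-type cells (0.30 ± 0.09, edgeR adjusted p = 0.0187). The genes that fell were Jak2 in knockout-labelled cells (-0.39 ± 0.11, edgeR adjusted p = 0.024), and Tyk2 (-0.52 ± 0.16, edgeR adjusted p = 0.0281) and Ifnar1 (-0.27 ± 0.08, edgeR adjusted p = 0.0152) in wild-type cells.

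Under DMSO 3 of these 12 genes were lower in knockout-labelled cells. Among them were Irf9 (-1.15 ± 0.13, edgeR adjusted p = 4.73e-05) and Stat2 (-0.70 ± 0.14, edgeR adjusted p = 0.00407), on the log2 scale. Jak2 was the 1 gene of these 12 that was higher (0.69 ± 0.11, edgeR adjusted p = 0.000692). Of all tested genes, 6.6% were higher and 9.2% lower. Jak2 was also the 1 gene called after docetaxel (0.56 ± 0.11, edgeR adjusted p = 0.00605), where 5.89% of all tested genes were.

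Among 11 interferon regulatory factors and signalling inhibitors, 2 rose and 1 fell with docetaxel in knockout-labelled cells, beside 9.09% and 7% of all tested genes. In wild-type cells 3 rose and 2 fell, beside 14.5% and 13.8% of all tested genes. Irf7, which amplifies interferon production, averaged 152 CPM in KO-DTX and 32.8 CPM in KO-DMSO (2.21 ± 0.24, edgeR adjusted p = 3.28e-05), and 213 CPM in WT-DTX and 96.3 CPM in WT-DMSO (1.14 ± 0.23, edgeR adjusted p = 0.00276). The others that rose were Irf5 in knockout-labelled cells (0.68 ± 0.18, edgeR adjusted p = 0.0205), and the inhibitor Socs1 (0.68 ± 0.18, edgeR adjusted p = 0.0123) and the phosphatase Ptpn11 (0.42 ± 0.10, edgeR adjusted p = 0.00516) in wild-type cells. Ptpn6 fell in both genotypes and Socs3 in wild-type cells. Under DMSO 4 of the 11 were lower in knockout-labelled cells (Irf7, Irf5, Ptpn2 and Irf2), as were 9.2% of all tested genes.

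Of 10 further genes linked to Isg15, such as proteases that can also act on it, the ligase Trim25 and the integrin subunits through which free Isg15 can act, 8 were tested. With docetaxel, Trim25 (0.42 ± 0.09, edgeR adjusted p = 0.00655) and Usp24 (0.29 ± 0.08, edgeR adjusted p = 0.0197) rose in knockout-labelled cells. Of all tested genes, 9.09% rose there and 14.5% in wild-type cells. Itgb2 (0.68 ± 0.14, edgeR adjusted p = 0.00269), Usp24 (0.27 ± 0.08, edgeR adjusted p = 0.019) and Usp5 (0.23 ± 0.08, edgeR adjusted p = 0.0435) rose in wild-type cells. Itgb2, a β2 integrin subunit, differed most between genotypes, at 47.6 ± 2.63 CPM in KO-DMSO against 5.62 ± 0.734 CPM in WT-DMSO (3.08 ± 0.14, edgeR adjusted p = 4.71e-09), and at 45.1 ± 6.02 CPM in KO-DTX against 8.99 ± 1.2 CPM in WT-DTX (2.32 ± 0.13, edgeR adjusted p = 7.38e-08). Its partner Itgal was too low to test.

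The 12 interferon genes listed here were near or below the limit of detection, and other interferon genes were not examined. Of these 12 ligand genes, 11 did not pass the filter on low counts, with at most 10 counts in any library. The 1 tested, Ifnk, was not called. Ifnb1, the interferon that many cell types can make, had 2, 4 and 8 counts in KO-DTX against 2, 4 and 0 in KO-DMSO, and 4, 4 and 10 in WT-DTX against 2, 8 and 0 in WT-DMSO. The groups overlapped throughout. At low counts even values outnumbered odd ones in the table, with 20968 values of 2 beside 16272 of 1 and 10159 of 4 beside 6828 of 3, so a count may hold both reads of a pair, and counting intervals were taken on halved counts. The ratio of summed Ifnb1 counts, scaled by library size, was 2.03 (exact 95% interval 0.464 to 12.2) for KO-DTX over KO-DMSO and 1.48 (0.446 to 5.63) for WT-DTX over WT-DMSO. It was 0.546 (0.0849 to 2.81) for KO-DMSO over WT-DMSO. These intervals cover counting error only, and a difference in Ifnb1 was not detectable at this depth.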

How the data were processed

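RNA of 12 cultures was depleted of ribosomal RNA, reverse transcribed with random hexamers and sequenced as paired reads, per the labels' protocols. The submitters' processing notes list STAR 2.5.1a and featureCounts 1.4.6-p5. The authors deposited raw counts per gene symbol. The sources used here do not give the genome build, the annotation, the strand setting or the handling of multi-mapping reads, so antisense and near-identical genes could share reads. Of 40757 entries, 351 repeated another in symbol and every count (0.907% of counts) and were removed.

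Genes were filtered with filterByExpr and library sizes were TMM-scaled. A single quasi-likelihood model with 4 group means was fitted to all 12 libraries in edgeR 4.0.16 (R 4.3.3). The Benjamini-Hochberg adjustment ran over 15538 genes per contrast, and calls were made at 0.05. An SE is the absolute log2 fold change over the root of the F statistic. Biological variation between libraries had a common coefficient of 13.2%. Log2 CPM used a prior count of 2. The labels call the replicates biological. The p-values set each difference between group means against the spread between these cultures, estimated over all 4 groups with information shared across genes.

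All 9 members are named. Of the other lists, up to 4 called genes with the largest changes and at least 5 CPM are named, plus genes of counts of 5 or fewer. Further genes were named after their values were seen. Some listed genes are counted but not reported here by name. The members were proposed as a family and pathway, and they and the lists were chosen with earlier results of these data known. Symbols were placed with GENCODE M21, and promoter windows came from RefSeq. The edgeR fit was tested on simulated data. Alternatives were DESeq2 1.42.0, RLE scaling, no filter, at least 1 CPM in 3 libraries, the 6 libraries of a contrast alone, a replicate block, each library left out, the library of WT-DMSO (2) and of KO-DTX (3) with the largest Gm23935 share left out together, and repeated entries kept. A lowess correction for GC content (span 0.3) was added after seeing the data. Plots were made with matplotlib 3.10.9 (Python 3.11.15).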

Additional observations from a re-analysis of the deposited data

Results flagged for a closer look

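Of the members and the listed pathway genes, Oas2, which is not a member, was the 1 gene whose docetaxel effect differed between knockout-labelled and wild-type cells by edgeR's test of the difference itself. The log2 difference was 1.78 ± 0.31 (edgeR adjusted p = 0.0484). Oas2 averaged 62.5 ± 7.54 CPM in KO-DTX and 6.16 ± 1.14 CPM in KO-DMSO, and 69 ± 12.7 CPM in WT-DTX and 23.3 ± 7.72 CPM in WT-DMSO (SD, n = 3 each). Over 20 alternatives the estimate ran from 1.57 to 2.03, and 9 of them called it (edgeR or DESeq2 adjusted p between 2.95e-22 and 0.242). The call was lost without KO-DTX library 2 or 3, KO-DMSO library 1, 2 or 3, WT-DTX library 1, 2 or 3, or WT-DMSO library 2. It was also lost with a filter of at least 1 CPM in 3 libraries (edgeR adjusted p = 0.0501) and without WT-DMSO library 2 and KO-DTX library 3 together (log2 1.57, edgeR adjusted p = 0.242).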

How the results depend on the processing

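All 9 members were called in the docetaxel comparison of knockout-labelled cells under every alternative. In wild-type cells the exception was Ifit2 without WT-DTX library 2, and between genotypes under DMSO it was Isg15 without any of 7 libraries. No member changed direction under any alternative. With no filter, adjusted p-values were far smaller at nearly the same estimates. For Isg15 in wild-type cells the docetaxel change was 1.43 (edgeR adjusted p = 1.34e-37), against 1.42 (edgeR adjusted p = 0.00115) in the main fit. After docetaxel, 1 member was called between genotypes, against 2 with DESeq2, 2 with the GC correction, 7 with no filter, 4 with the 6 libraries alone and 1 to 3 with 1 library left out (3 without WT-DMSO library 1). Of all genes, 915 were called after docetaxel, against 1350 with DESeq2, 1325 with the GC correction, 1185 with no filter and 845 with the 6 libraries alone. In the difference of docetaxel effects, 0 members were called, against 1 with DESeq2, 6 with no filter and 0 to 2 with 1 library left out (2 without WT-DMSO library 1). Of all genes, 17 were called there, against 165 with DESeq2, 39 with the GC correction, 421 with no filter, 4 without WT-DMSO library 2 and KO-DTX library 3, each the richest of its group in Gm23935, and 2 to 431 with 1 library left out (431 without WT-DMSO library 1). Without the same 2 libraries, 1267 genes in place of 2454 were called between genotypes under DMSO, and 565 in place of 915 after docetaxel. With 1 library left out these counts ran from 1264 to 3273 and from 467 to 1083, and from 1311 to 2881 (2499 with all libraries) for docetaxel in knockout-labelled cells. The causes were not tested.

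Whether the replicate numbers pair the samples was not settled. Over 10412 genes, the correlation of deviations between same-numbered libraries ran from -0.64 to 0.677 in 18 pairs, with 8 above 0.1. In 8 of the 18 the same number gave the best match. The highest were KO-DTX with WT-DTX for libraries 1 (0.677) and 2 (0.452), and KO-DMSO with WT-DMSO for library 1 (0.439). Deviations within a group cancel out, so a high match brings lower ones elsewhere, and this range cannot exclude pairing. With the number as a replicate block, 4 members were called between genotypes after docetaxel, where 943 of all genes were called. In the difference of effects 2 members were called, and 48 of all genes. The listed interferon ligands, with few counts, are limited by depth.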
